A study of Mus musculus with 8 samples.

Results

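The genes described here were 10 regulators of the step from growth into DNA replication: Cdkn1a, Cdkn1b, Cdkn2a, Cdkn2b, Ccnd1, Ccnd2, Ccne1, Trp53, Mdm2 and Myc. They were grouped because Klf4 is known to act on the p21 gene and on cyclins, and all 10 were found among 21887 protein-coding genes of the GRCm38.p6 table. Their regions were taken as every peak, that is, every called region of open chromatin, over a gene or within 25 kb of either end. The windows of Cdkn2a and Cdkn2b overlap, so that 9 separate stretches of 586 kb in all were read. They held 53 of 100099 peaks of cells with the empty vector and 65 of 128538 peaks of cells with Klf4.

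In GRCm38 coordinates the inhibitor genes lie with Cdkn1a at chr17:29090979-29100722, Cdkn1b at chr6:134920401-134925525, Cdkn2a at chr4:89274473-89294619 and Cdkn2b at chr4:89306289-89311032. The cyclin genes lie with Ccnd1 at chr7:144929931-144939831, Ccnd2 at chr6:127125162-127152188 and Ccne1 at chr7:38097984-38107490. The remaining genes lie with Trp53 at chr11:69580348-69591873, Mdm2 at chr10:117688875-117710758 and Myc at chr15:61985341-61990361. No other protein-coding gene reached into the windows of Ccne1 and Myc.

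The peaks come from ATAC-seq, in which a transposase cuts and tags DNA that is free of nucleosomes, in MIN6 cells. MIN6, a line from mouse insulinomas that keeps many beta cell traits and is labelled WT here, was transfected for 48 hours with the pcDNA 3 empty vector or with pGloMyc-Klf4, 4 biological replicates each. Whether both plasmids share a backbone is not given in the sources used here, so an effect of the backbone and one of Klf4 cannot be told apart. Each group is represented by 1 merged peak list. There is therefore no spread between libraries to set a difference against, no test between the groups, and read depth is unknown.

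As background, cyclins are the activating partners of cyclin-dependent kinases. D-type cyclins and then cyclin E drive phosphorylation of the retinoblastoma protein, which releases E2F factors and starts replication. The products of Cdkn1a (p21) and Cdkn1b (p27) inhibit these kinases broadly, and those of Cdkn2a (p16Ink4a) and Cdkn2b (p15Ink4b) block the kinases that pair with D-type cyclins. Cdkn2a also encodes p19Arf from a separate upstream start, and p19Arf restrains Mdm2, the ubiquitin ligase that removes p53. p53, the product of Trp53, activates Cdkn1a, and Myc promotes growth and cyclin expression. In beta cells these inhibitors hold division low, and Ccnd2 is the D-type cyclin known to be needed for beta cell expansion. MIN6 was derived from mice carrying the simian virus large T antigen behind an insulin promoter, and this viral protein is known to bind p53 and the retinoblastoma protein, which limits the line as a model of p53 and cyclin control.

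The labelled cell type was checked on markers. All 12 beta cell markers, among them Ins1, Ins2, Pdx1 and Mafa, had a peak within 2 kb of the gene in both lists, with summed covered lengths of 36033 bp (empty vector) and 36840 bp (Klf4). Sst, Cpa1 and Amy2b had none in either list. The summed covered length of markers of other cells was larger with Klf4 for endothelial cells (3732 and 10941 bp, with 2 and 3 of 3 markers under a peak), duct (218 and 4113 bp, 1 and 3 of 3), fibroblasts (6863 and 10815 bp, 3 of 3 in both), leukocytes (2992 and 5632 bp, 3 and 4 of 4) and acinar cells (2702 and 4361 bp, 2 of 4 in both). It was smaller for alpha cells (5576 and 5031 bp, 4 of 4 in both, Gcg included) and delta cells (863 and 740 bp, 1 of 2 in both). Their part in the results below was not tested. At the Klf4 gene itself, the strongest peak of the Klf4 list had a −log10 q of 17134, and the empty vector peaks that touch the gene had 12.8 and 32.2. The Klf4 peak, 55529721 to 55530988 on chromosome 4, overlapped the one with 12.8 and not the one with 32.2. Whether reads of the transfected Klf4 plasmid add to the Klf4 peak was not tested, so its value is not read as open chromatin. The −log10 q, like the fold enrichment given further on, is the value the authors' peak caller assigned to each peak against background.

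The starts of the members are shown first, because the same places were open in both lists and because 2 genes have a pair of starts. RefSeq promoter sequences (GRCm38.p6) were matched for 7 of the 10 members, with 9 starts. None was matched for Ccnd1, Ccnd2 and Myc. The sequences below are the 250 bases before a start, 5′ to 3′ on the strand of the gene. Capitals mark CACCC, the core of the motif of Klf4 and its relatives, and GGGCGG, the GC box, both in either orientation, and in Cdkn1a also 2 CATG cores 6 bases apart, as in adjoining p53 sites. The Cdkn1a pair lies at chr17:29090729-29090978 and chr17:29093519-29093768 on the plus strand. The Cdkn2a pair lies at chr4:89294620-89294869 (the upstream p19Arf start) and chr4:89282193-89282442 (the p16Ink4a start), Cdkn2b at chr4:89311033-89311282, and Ccne1 at chr7:38107491-38107740, all on the minus strand. They are shown because they hold the contrasts in motif content and in peaks described next.
Cdkn1a, upstream start: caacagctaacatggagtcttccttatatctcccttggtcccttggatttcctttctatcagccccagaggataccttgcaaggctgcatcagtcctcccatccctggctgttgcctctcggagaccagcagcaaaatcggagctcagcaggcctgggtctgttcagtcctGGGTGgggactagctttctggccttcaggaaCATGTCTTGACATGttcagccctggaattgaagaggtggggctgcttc
Cdkn1a, downstream start: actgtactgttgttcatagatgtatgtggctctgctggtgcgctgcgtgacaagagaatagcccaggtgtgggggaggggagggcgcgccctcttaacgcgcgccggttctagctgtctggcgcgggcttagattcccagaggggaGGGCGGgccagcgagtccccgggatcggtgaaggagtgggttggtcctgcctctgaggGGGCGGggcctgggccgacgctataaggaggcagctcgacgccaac
Cdkn2a, p19Arf start: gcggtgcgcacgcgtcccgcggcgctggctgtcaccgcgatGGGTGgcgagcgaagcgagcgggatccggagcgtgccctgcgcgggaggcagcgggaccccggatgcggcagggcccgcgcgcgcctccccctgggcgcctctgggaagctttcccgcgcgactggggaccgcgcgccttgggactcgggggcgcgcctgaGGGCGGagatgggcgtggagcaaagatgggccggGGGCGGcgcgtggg
Cdkn2a, p16Ink4a start: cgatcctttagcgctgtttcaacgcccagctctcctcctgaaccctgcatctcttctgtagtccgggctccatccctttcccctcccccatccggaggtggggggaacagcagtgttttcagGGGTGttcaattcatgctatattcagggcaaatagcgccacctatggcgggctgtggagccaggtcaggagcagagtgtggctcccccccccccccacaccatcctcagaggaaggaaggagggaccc
Cdkn2b start: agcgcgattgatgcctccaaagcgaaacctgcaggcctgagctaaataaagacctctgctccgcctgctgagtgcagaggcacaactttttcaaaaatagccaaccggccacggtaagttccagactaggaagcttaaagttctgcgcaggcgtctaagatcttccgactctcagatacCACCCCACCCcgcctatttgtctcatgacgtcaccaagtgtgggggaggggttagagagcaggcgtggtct
Ccne1 start: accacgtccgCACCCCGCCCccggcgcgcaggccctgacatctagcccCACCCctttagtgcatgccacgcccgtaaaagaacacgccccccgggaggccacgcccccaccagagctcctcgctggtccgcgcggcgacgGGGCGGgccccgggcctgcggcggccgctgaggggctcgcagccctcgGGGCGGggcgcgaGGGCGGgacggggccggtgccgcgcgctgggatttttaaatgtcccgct

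Of the 9 starts, 8 lay under a peak in both lists and 1, the upstream start of Cdkn1a, under none in either. Among 21263 RefSeq starts of protein-coding genes, 57.3% lay under an empty vector peak, 63.3% under a Klf4 peak and 56.5% under both. The upstream start of Cdkn1a had no peak within 1 kb in either list. Its sequence above holds 1 CACCC match, no GC box and the match CATGTCTTGACATG at chr17:29090931-29090944, a motif found in 0.712% of 32851 RefSeq promoters of 300 bases. The downstream start, under a peak with both plasmids, holds 2 GC boxes and no CACCC match. The motif with CATG cores was added after the sequences had been seen.

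Over the whole 300 bases from 250 before to 50 after each start, on both strands, CACCC was found at 6 of 9 member starts, against 57.5% of all promoters. GGGCGG was found at 7 of 9, against 35.7%. The longer Klf motif GGGNGTGG was found at 2 of 9, the Ccne1 start and the p19Arf start, against 17.6%. The E2F-like TTTNNCGC was found at 3 of 9 (both Cdkn2a starts and Mdm2), against 5.17%, and the E-box CACGTG at 1 of 9 (Trp53), against 7.15%. GGGNGTGG and GGGCGG can overlap with CACCC. The share of G and C was 77.0% at the p19Arf start and 76.0% at Ccne1, the highest of the 9, and 52.7% at Trp53, the lowest, with a median of 52.7% over all promoters. These matches describe letters and not binding.

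The regions over the starts had nearly the same borders with both plasmids. At Cdkn2b the empty vector peak, 89310203 to 89311239 on chromosome 4, had a −log10 q of 226 and the Klf4 peak, 89310203 to 89311247, had 198. It was the strongest peak over any member start in both lists, stronger than 99.1% and 99.5% of all peaks of the empty vector and Klf4 lists. The p16Ink4a start was covered from 89281969 to 89282777 and from 89281969 to 89282794, with −log10 q of 107 and 98.2. The p19Arf start was covered from 89294215 to 89295832 and from 89294219 to 89295826, with 93.2 and 84.8. All 3 starts of this locus, which encodes p15Ink4b, p16Ink4a and p19Arf, were thus under strong peaks in both lists.

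At Cdkn1b the region over the start began at 134919776 on chromosome 6 in both lists and measured 1409 bp (empty vector) and 1487 bp (Klf4), with −log10 q of 154 and 114. The region over the downstream start of Cdkn1a, 29093488 to 29095888 and 29093495 to 29095836 on chromosome 17, had 72.3 and 66.2. It was 2401 and 2342 bp wide and ran on into the gene body. At Ccne1, which encodes cyclin E1, the region was 1289 and 1504 bp wide, 38106910 to 38108198 and 38106754 to 38108257 on chromosome 7, with 89.1 and 59.6. At Trp53 it was 2894 and 2825 bp wide, 69578922 to 69581815 and 69578919 to 69581743 on chromosome 11, with 89.8 and 64.9, and it also touched the neighbouring gene Wrap53. At Mdm2 it was 1756 and 1533 bp wide, 117709532 to 117711287 and 117709745 to 117711277 on chromosome 10, with 51.6 and 47.9. A −log10 q follows the depth and background of its own list, and the pairs are printed side by side without reading a change from them. Within 1 kb of the 9 starts, log2 ratios of covered length, with 500 bp added to both lengths, lay between -0.01 and 0.16. The median over 15175 starts with a peak within 1 kb in either list was 0.01.

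**Figure D1:**
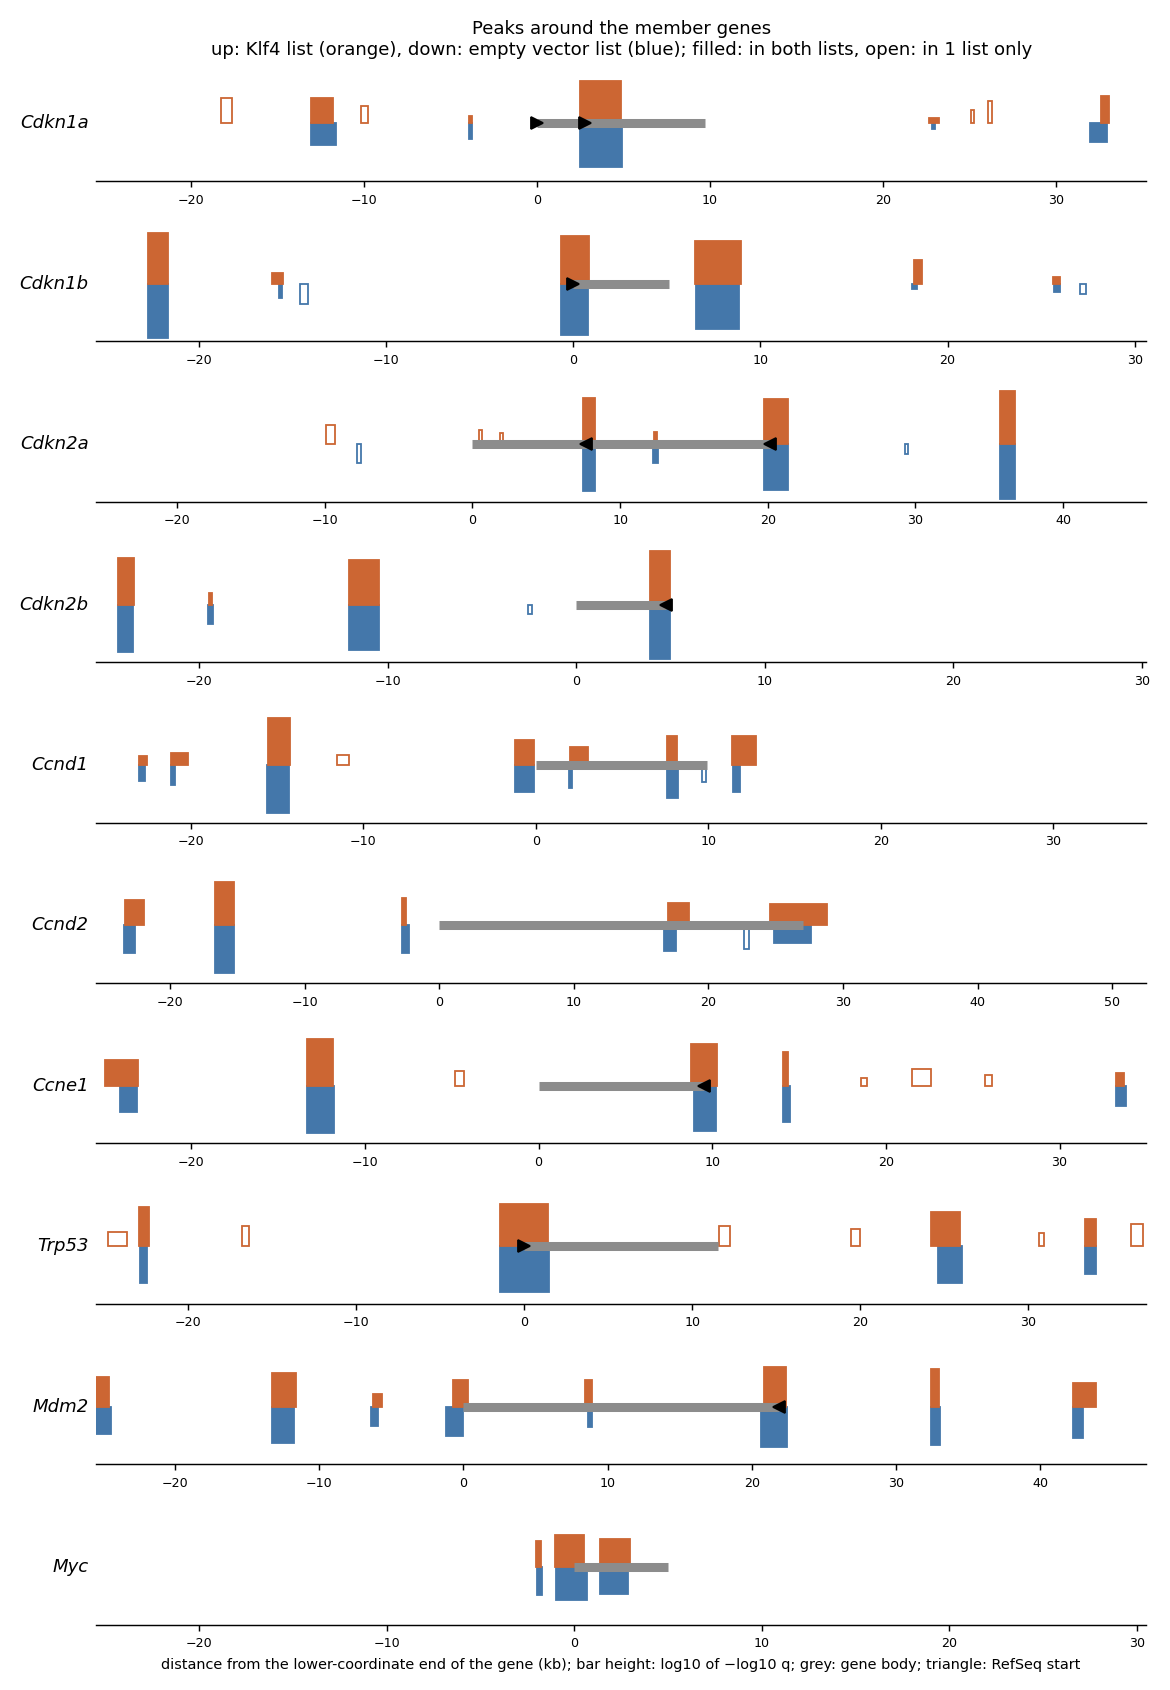
Peaks of both lists around each of the 10 genes, by distance in kb from the lower-coordinate end of the gene, with Klf4 peaks drawn upward and empty vector peaks downward, bar height showing the log10 of −log10 q, the gene body in grey and RefSeq starts as triangles. Filled bars are regions found in both lists and open bars regions found in 1 list only, and 8 of the 9 starts sit in a filled pair.

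For Ccnd1, Ccnd2 and Myc, positions are given by gene end. The higher-coordinate end of Ccnd2 lay under a region of 2693 and 4241 bp (empty vector and Klf4), the widest of the members in the Klf4 list. The Ccnd2 region had fold enrichments of 2.77 and 2.54 and −log10 q of 5.9 and 7.91. In the empty vector list the region over the Trp53 start, at 2894 bp, was wider. At Myc, 3 regions in each list paired one to the other, and the one over the lower-coordinate end was 1665 and 1533 bp wide with −log10 q of 27.2 and 22.8. No other peak lay in the 25 kb on either side of Myc in either list. Ccnd1, the gene of cyclin D1, had a region of 642 and 561 bp inside the body with −log10 q of 27.2 and 17.4. Near its higher-coordinate end, a 222 bp region with −log10 q of 5.21 was found with the empty vector only.

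The strongest peak of each window was the same place in both lists, but it was not always the member's own. In the windows of Cdkn1b, Ccnd1 and Ccnd2 it touched a neighbour, Gpr19 (−log10 q 212 and 157), LTO1 (118 and 99.5) and Tigar (113 and 73.5). In the window of Ccne1 it lay 11807 and 11827 bp downstream of the gene, outside any other protein-coding gene, with 111 and 98.8. In the Cdkn2a window it was the peak over the Cdkn2b start.

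Next, the members' peaks were divided by whether a peak of the other list overlapped them by at least 1 bp. In the joined windows 47 peaks of each list were overlapped. The empty vector list had 6 peaks without a counterpart, 11.3% of 53 (95% Wilson interval 5.29 to 22.6%, covering counting error only), and 18.8% of all its peaks had none. The Klf4 list had 18, 27.7% of 65 (interval 18.3 to 39.6%), and 36.7% of all its peaks had none. The members' shares lay below those of the whole lists, whose shares fell inside the members' intervals. With the Klf4 list cut to the length of the empty vector list, the members' shares were 24.5% (13 of 53, empty vector) and 25.9% (14 of 54, Klf4), and those of the whole lists 30.2% and 30.3%. None of the members' 21 empty vector peaks and 19 Klf4 peaks with a −log10 q of 20 or more lacked a counterpart, and over the whole lists 0.121% and 7.24% of such peaks did.

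The peaks found in 1 list only had a lower median −log10 q than those found in both. Their values ran from 2.56 to 10.4 (median 5.81) with the empty vector and from 2.07 to 12.8 (median 4.73) with Klf4, against medians of 15.5 and 15.7 for the peaks found in both lists. Median widths were 278 and 458 bp. Of the 18 Klf4-only peaks, 2 lay in a member's body and 16 outside, and none covered a matched start. The flanks are the larger part of every window. Of the 19 Klf4 peaks over members' bodies, 10.5% were Klf4-only, against 35.9% over all gene bodies.

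A Klf4-only peak was present in the windows of 5 of 10 members, against 82.1% of the 19286 genes with a peak in their window. An empty-vector-only peak was present in the windows of 5 of 10, against 56.4%. The 1 such peak at Cdkn2b, 89303737 to 89303952, also lies in the Cdkn2a window and was counted for both. Cdkn2a and Ccnd1 had both kinds, and Mdm2 and Myc had neither. In the 5 windows of the first kind the Klf4-only peaks numbered 6 at Trp53, 4 at Cdkn1a, 4 at Ccne1, 3 at Cdkn2a and 1 at Ccnd1.

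**Figure D2:**
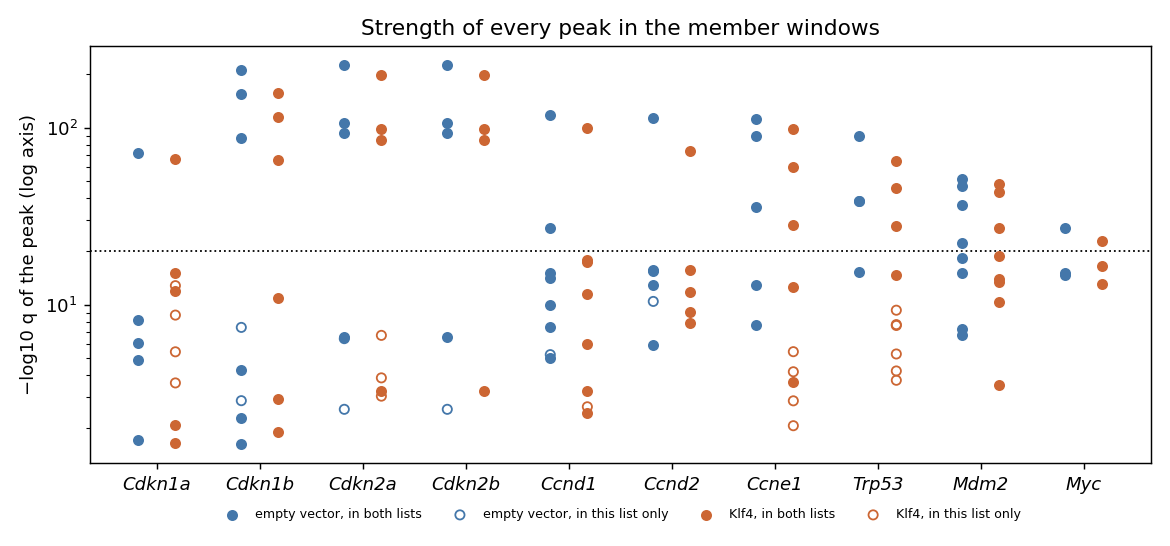
The −log10 q of every peak in each member window on a log axis, blue for the empty vector list and orange for the Klf4 list, filled where the peak was found in both lists and open where it was found in 1 list only, with a dotted line at 20. All open circles lie below the line, the highest at 12.8 for Cdkn1a with Klf4.

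At Cdkn1a, the p21 gene that prompted the set, the list-specific peaks were all in the Klf4 list. The strongest of all members, 29072707 to 29073352, lay 17627 bp upstream of the gene. Its −log10 q was 12.8, its fold enrichment 5.22, and its nearest empty vector peak was 4579 bp away. A second upstream peak, 29080808 to 29081223, had 5.41. The other two, with 3.61 and 8.72, lay inside the neighbouring gene Rab44, and the stronger was 29117062 to 29117269. Between the upstream pair, a region that began at 29077931 in both lists and ended 11637 and 11793 bp upstream of the gene was 1412 and 1256 bp wide, with 8.14 and 12.0.

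At Trp53 the 6 Klf4-only peaks had −log10 q from 3.73 to 9.29. Of these, 5 touched a neighbouring gene. They were 69616474 to 69617190 (9.29) and 69610968 to 69611258 (3.73) in Shbg, 69563553 to 69563953 (7.70) in Wrap53, 69599810 to 69600334 (5.25) in Atp1b2 and 69555571 to 69556685 (4.21) in Efnb3. The remaining peak, 69591941 to 69592578 (7.62), began 68 bp past the end of Trp53, and no empty vector peak lay within 10 kb of it. Over the body of Trp53 itself the lists shared the region over the start and had no other peak.

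At Ccne1 the 4 Klf4-only peaks had −log10 q from 2.07 to 5.41, and the strongest, 38119471 to 38120580, was 1110 bp wide and lay 11981 bp upstream. At Cdkn2a the Klf4-only peak with the highest value, 89264555 to 89265147 (6.70), and an empty-vector-only peak, 89266665 to 89266911 (6.41), lay 1518 bp apart downstream of the gene. At Cdkn1b the stronger of 2 empty-vector-only peaks, 134905835 to 134906253 (7.43), lay 14148 bp upstream. The strongest empty-vector-only peak of all members, 127147764 to 127148162 with 10.4, lay in the body of Ccnd2, 1539 bp from the nearest Klf4 peak.

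The length under peaks in each window was then compared as the log2 ratio of Klf4 to empty vector, after adding 500 bp to each, and a value of at least 0.5 or at most -0.5 was counted as past the threshold. Over the joined windows peaks covered 47539 and 62352 bp (empty vector and Klf4), a ratio of 1.31, and the ratio over the whole lists was 1.28. The direction turned with peaks of a −log10 q of at least 20 (0.964) and with the 20000 strongest peaks of each list (0.873). Whole-list ratios at these 2 settings are not given here. Of all genes, 10.8% and 9.95% were then at 0.5 or more, and 7.63% and 6.83% at -0.5 or less. The window was covered over a longer stretch with Klf4 for 8 of 10 members and over a shorter one for 2, against 77.0% of 19286 genes with a longer stretch. Past the threshold were 3 of 10 higher with Klf4, against 31.5% of genes, and 0 of 10 lower, against 2.35%. The median over the members was 0.20 and that over all genes 0.28. The counts of members were thus close to those of genes at large.

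Among the kinase inhibitors, covered lengths with the empty vector and with Klf4 were 5156 and 6250 bp at Cdkn1a (log2 ratio 0.26), 6331 and 6466 bp at Cdkn1b (0.03), 4205 and 4691 bp at Cdkn2a (0.14) and 3958 and 3669 bp at Cdkn2b (-0.10). None of these 4 was past the threshold. The window of Cdkn1a stood near the middle of all genes, with 47.8% of them lower. With 50 kb on both sides in place of 25 kb, Cdkn1a was past the threshold at 0.65, as were 32.7% of genes. That of Cdkn2b had 14.6% lower.

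Among the cyclins, Ccnd1 went from 4388 to 7499 bp (0.71), Ccnd2 from 6724 to 9027 bp (0.40) and Ccne1 from 4847 to 8014 bp (0.67). Ccnd1 and Ccne1 were past the threshold, with 81.1% and 79.2% of all genes lower, and Ccnd2 was not, with 60.5% lower. Trp53 was past it as well, with 5422 and 9144 bp (0.70, 80.8% lower). Mdm2 had 7048 and 7894 bp (0.15). Myc had 3418 and 3367 bp (-0.02).

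**Figure D3:**
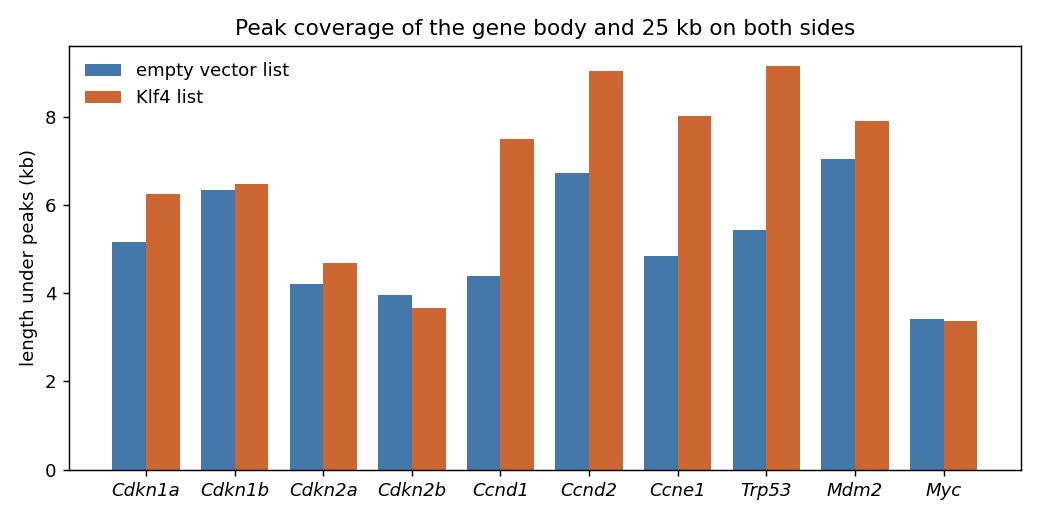
Length under peaks in kb over each gene and 25 kb beyond either end, blue bars for the empty vector list and orange bars for the Klf4 list, 1 value per list with no replicate error. The cyclin and Trp53 pairs are farthest apart, such as 5422 and 9144 bp at Trp53, and the Cdkn1b and Myc pairs are nearly level.

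**Figure D4:**
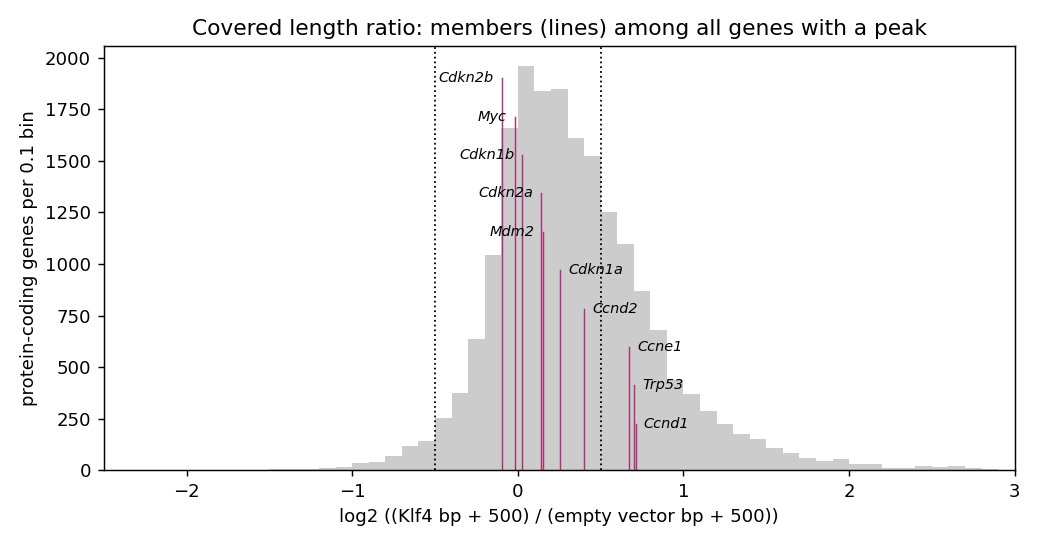
Number of protein-coding genes per bin of 0.1 of the log2 covered length ratio, with the 10 members as lines whose heights only separate their names and dotted lines at -0.5 and 0.5. The members run from -0.10 (Cdkn2b) to 0.71 (Ccnd1), inside the body of the distribution of 19286 genes.

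The longer coverage came from different kinds of region in different genes. At Trp53, 3370 of the 3722 bp of difference lay in Klf4-only peaks, and at Ccne1 2368 of 3167 bp did. At Ccnd1 just 681 bp lay in a Klf4-only peak, and regions found in both lists were 2652 bp longer with Klf4. At Ccnd2 no Klf4-only peak was found, and shared regions were 2702 bp longer. Over the joined windows, Klf4-only peaks held 8887 bp, empty-vector-only peaks 1811 bp, and shared regions were 7737 bp longer with Klf4.

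At Ccnd1 the widening sat mainly in 3 regions, which went from 232 to 1008 bp (−log10 q 7.49 and 3.24), from 179 to 1017 bp (9.92 and 5.96) and from 400 to 1382 bp (15.1 and 17.9). At Ccnd2 it sat in the region over the higher-coordinate end, from 2693 to 4241 bp, in a region of the gene body, from 862 to 1547 bp, and in a region that touches Tigar, from 842 to 1444 bp. By contrast, the 12 shared pairs of the joined windows with a −log10 q of 50 or more in both lists had a median Jaccard overlap (shared length over joint length) of 97.5%, and the other 35 pairs had 68.2%. Over all chromosomes these medians were 93.8% (10967 pairs) and 74.4% (70861 pairs). The spread of these widths between libraries is unknown.

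**Figure D5:**
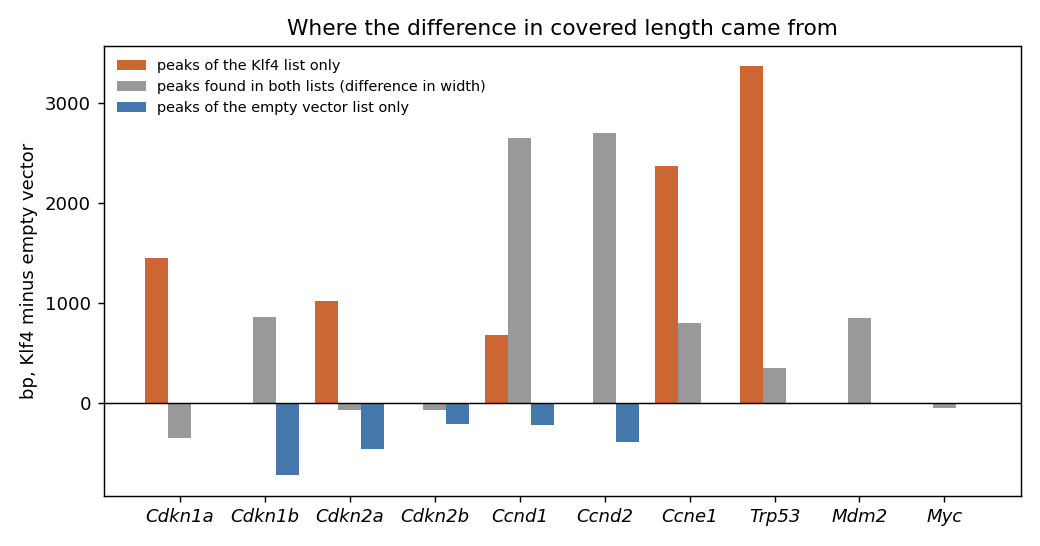
Difference in covered length between the lists (Klf4 minus empty vector, in bp) for each gene, split into peaks of the Klf4 list only, the change in width of regions found in both lists and peaks of the empty vector list only. Klf4-only peaks make up most of the gain at Trp53 (3370 bp) and Ccne1 (2368 bp), and wider shared regions that at Ccnd1 (2652 bp) and Ccnd2 (2702 bp).

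The count of members past the threshold changed when weak peaks were left out. With peaks of a −log10 q of at least 5 in both lists, 0 of 10 members reached 0.5, against 28.6% of genes. Trp53 then had 0.48, Ccnd1 0.35 and Ccne1 0.35. With 20 or more, Ccnd1 was at -0.43, the opposite sign, Trp53 at 0.09 and Ccne1 at 0.03. Over the gene body alone Trp53 was at -0.054.

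A further 48 genes of the same pathways were read in the same way, and 47 had a peak. Of these, 8 were past the threshold higher with Klf4 (17.0%) and 1 lower (2.13%), against 31.5% and 2.35% of all genes, and their median was 0.19 against 0.28. By role, 3 of 5 genes of the Myc network were past it, 1 of 5 cyclins, 1 of 5 kinases, 1 of 3 kinase inhibitors, 1 of 8 genes of the Rb and E2F group on each side, 1 of 11 genes of the p53 response and 0 of 10 genes of phase control and replication. Pmaip1 had no peak in either list.

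The largest value was that of Cdkn1c, which encodes the kinase inhibitor p57, which went from 1982 to 9218 bp (1.97), of which 4188 bp lay in 4 Klf4-only peaks. The strongest peak of its window in the empty vector list had a −log10 q of 40.9. In the Klf4 list the strongest was a Klf4-only peak, with 15.5. With peaks of 20 or more, only the empty vector list thus had a peak there. Cdkn2c had 0.11 and Cdkn2d 0.072. Max, the obligate partner of Myc, went from 1173 to 3406 bp (1.22), and 4 Klf4-only peaks joined a strong region found in both lists (−log10 q 232 and 193). Zbtb17, which encodes the Myc-binding transcription factor Miz-1, went from 4370 to 9655 bp (1.06). Its window held 12 Klf4-only peaks, the strongest with a −log10 q of 34.4, and 1 empty-vector-only peak with 7.19. Mxd1, which encodes a competitor of Myc for Max, went from 3050 to 5918 bp (0.85). Its window held 7 Klf4-only peaks, the strongest with 24.6, and 1 empty-vector-only peak with 5.14. The window of Myc itself differed by 51 bp.

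Ccnd3, the third D-type cyclin, went from 6338 to 11824 bp (0.85), with 13 Klf4-only peaks whose strongest had a −log10 q of 18.9. The values of the other cyclins ran from -0.38 at Ccne2 through -0.09 at Ccnb1 and 0.17 at Ccna2 to 0.35 at Ccnb2, so that cyclins as a class had values of both signs. Rb1, the gene of the retinoblastoma protein, was the 1 gene past the threshold in the other direction, with 13 empty vector peaks over 7570 bp and 8 Klf4 peaks over 5083 bp (-0.53). Its 5 empty-vector-only peaks had −log10 q of up to 6.28. Cdk4 (0.06), Cdk2 (-0.07), E2f1 (0.21) and Mdm4 (0.24), the relative of Mdm2, stayed within the threshold.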

How the data were processed

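The labels list 8 ATAC-seq libraries of MIN6 cells, and groups were taken from their titles. FastQC, Bowtie2, MACS2, DiffBind and build mm10 (GRCm38) are named in the submitters' processing notes, without versions. Filters, the transposase shift, duplicate handling and whether libraries were merged before calling are not given in the sources used here. The authors deposited 1 broadPeak list per plasmid with a fold enrichment, a ratio to local background, for each peak. The deposited files further hold a −log10 p-value, used to rank peaks for the lists cut by length, a −log10 q-value and a score that follows it and was not used. Peaks on scaffolds were left out (165 and 188).

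Gene windows came from the GRCm38.p6 RefSeq table. Overlap meant 1 bp or more. The members and gene lists were chosen with earlier results of these data known. Named peaks were the strongest of each window, those over starts, and list-specific peaks, chiefly with a −log10 q of at least 5. From the 48 other genes those past 0.5 in either direction with at least 1000 bp were named, up to 5 in each direction; others of that list were named for their role after their values were seen. No test between groups was possible from the merged lists. Alternatives changed peak strength, list length, peak width, window, overlap and the added bp. The code was tested on simulated data, where 200 of 200 altered genes were found and 0 of 21687 unaltered ones. Altered genes had several times the covered length and unaltered ones equal lengths, without noise. The run thus checked the arithmetic and not how well real changes are found. Python 3.11.15, numpy 2.4.6, pandas 2.3.3 and scipy 1.17.1 were used.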

Additional observations from a re-analysis of the deposited data

How the results depend on the processing

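No paired analysis was possible because each group is 1 merged list with no value per library. A fit with a replicate block and the omission of single replicates were likewise not run. The ratio of covered length over the joined windows, 1.31, reversed to 0.964 with a −log10 q of at least 20 and to 0.873 with the 20000 strongest peaks of each list, and was 1.12 over gene bodies alone. It was 1.26 to 1.36 with each member left out in turn. The count of 3 members at or above 0.5 became 0 at a −log10 q of at least 5 (28.6% of all genes with a peak), at 20 or more (10.8%), with the 20000 strongest peaks (9.95%) and over gene bodies (28.6%), 1 with 10 kb windows (29.5%) and 4 with 50 kb windows (32.7%), where Cdkn1a was at 0.65. The count at or below -0.5 became 1 with the 20000 strongest peaks (Mdm2, -0.79), against 6.83% of genes. The 3 members past 0.5 each changed sign in some setting, Ccnd1 at 20 or more (-0.43), Ccne1 (-0.090) and Trp53 (-0.44) with the 20000 strongest peaks, and Trp53 also over the gene body (-0.054). Members within the threshold that changed sign under at least 1 setting were Mdm2 (also -0.28 at 20 or more), Cdkn1b (as low as -0.18), Cdkn1a (as low as -0.030) and Cdkn2b (as high as 0.080).

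The windows held 21 and 19 peaks (empty vector and Klf4) at 20 or more, 18 and 15 with the 20000 strongest, 29 and 33 with 10 kb windows, 85 and 109 with 50 kb windows and 18 and 19 over gene bodies. Peaks of at least 500 bp left 32 with the empty vector, and leaving out peaks in other genes left 43 with Klf4. The empty-vector-only share was 9.52% (2 of 21) at 20 or more in both lists (18.6% of all such peaks) and 16.7% (3 of 18) with the 20000 strongest (12.7%). The Klf4-only share was 0% at 20 or more in both lists (16.4% of all such Klf4 peaks) and with the 20000 strongest (12.7%), 10.5% over gene bodies (35.9% over all gene bodies), and 40% where 50% of a peak had to be covered (43.1%). With a Klf4 list as long as the empty vector list, the empty-vector-only share was 24.5% and the Klf4-only share 25.9% (30.2% and 30.3% of the whole lists). Of the 48 other genes, 1 reached 0.5 at 20 or more (10.8% of all genes) and with the 20000 strongest peaks (9.95%). The count of 1 at or below -0.5 became 2 in both of these (7.63% and 6.83% of all genes) and with lists of equal length (6.58%), and 0 with 50 kb windows (2.23%). The cause was not tested. A ratio was taken to move when it changed by over 10%, a share when it left its interval, and a count when it changed by over 1.5 times. Of 95 such values 63 stayed within these limits.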

Other observations

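The peaks at Myc were strong for their fold enrichment. The fold enrichments of the 3 empty vector peaks in its window lay between 2.47 and 3.10, and peaks of that list within 10% of the same fold had a median −log10 q of 1.72. The Myc peaks, with −log10 q of 14.6, 15.1 and 27.2, exceeded 97.8 to 98.4% of them. In the Klf4 list the 3 peaks, with fold enrichments of 2.52 to 3.02, exceeded 96.6 to 98.1% of peaks of like fold. The place of all peaks within 500 kb of Myc on the same scale had a median of 36.7% (36 peaks) and 27.9% (38 peaks). The cause was not tested. The other members' windows had medians between 35.6 and 95.7% on this scale in the empty vector list, with the highest at Ccne1.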
